A study of Bos taurus with 6 samples.

Results

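Heat shock proteins and J-domain proteins were followed in rumen epithelial primary cells (REPC), a culture grown from the rumen lining of a Holstein bull calf that was 2 weeks old and had received milk replacer only. Members were taken by gene name from the deposited gene tables: HSP90 genes, HSPA, HSPB, HSPD, HSPE and HSPH genes, and DNAJA, DNAJB and DNAJC genes. This gave 72 of the 32183 listed genes, each on 1 row. RNA was sequenced from 3 control cultures and from 3 cultures that received 5 mM butyrate for 24 h, and the methods name a single calf for all 6, so the p-values below measure the spread between cultures of cells from 1 animal. Butyrate is a short-chain fatty acid of rumen fermentation and an inhibitor of histone deacetylases.

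Molecular chaperones bind proteins that are not yet folded or have lost their fold. HSP70 proteins (the HSPA genes) bind and release short stretches of a client in a cycle driven by ATP, J-domain proteins (the DNAJ genes) bring clients to HSP70 and start its ATP hydrolysis, and HSP110 proteins and HSPBP1 exchange the nucleotide. HSP90 acts later, on clients such as kinases and steroid receptors, the HSPD1 and HSPE1 proteins form the folding chamber of mitochondria, and small heat shock proteins (HSPB) hold unfolded clients without ATP. Some members are made at all times and others mainly after stress, when the transcription factor HSF1 or, in the endoplasmic reticulum (ER), the unfolded protein response calls for them.

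Expression was given as FPKM, fragments scaled to transcript length and to the size of the library, so levels can be compared between genes. A member is said to have risen or fallen where limma, fitted to log2(FPKM + 0.1) over the 15813 genes whose mean FPKM reached 0.1, gave a Benjamini-Hochberg adjusted p under 0.05. Of the 72 members, 66 were tested. After butyrate 33 of them fell and 8 rose, and 25 did not pass the threshold, whereas 25.9% of all tested genes fell and 32.5% rose. The median log2 fold change of the tested members was -0.28, against 0.10 for all tested genes. In all 41 members that changed, the butyrate values lay wholly outside the range of the control values. The groups were apart in 47 members in all, 36 lower and 11 higher, while 28.9% of all tested genes were apart and lower and 36.1% apart and higher. DNAJB13, HSPB9 and DNAJC6 passed the level filter only through the butyrate cultures.

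Levels summed over the 72 members were lower in every butyrate culture. Control replicates 1 to 3 had sums of 7400, 7403 and 7187 FPKM, and butyrate replicates 1 to 3 had 5334, 5255 and 5292. Members made up between 1.06% and 1.09% of all FPKM in the control cultures and between 0.841% and 0.861% after butyrate. Abundant genes as a whole tended to be lower after butyrate. Where the mean FPKM over the 6 cultures was 50 or more, 16 of 21 members fell and 1 rose, while 51.9% of all tested genes at that level fell and 30.6% rose. Below that level, 17 of 45 tested members fell and 7 rose, against 21.6% and 32.9% of all tested genes. The total FPKM of a culture was between 678035 and 681912 in control and between 619401 and 629037 after butyrate, and rescaling each culture to the same total raised the median log2 fold change of all genes from 0.10 to 0.22. With that scaling 30 members fell and 15 rose, and the share of rises among the calls went from 19.5% to 33.3%. Relative to the median of all genes, the members' median was lower by 0.39 on the log2 scale with either scaling. Equal totals multiply each culture by a constant and shift all genes almost alike, so this distance could hardly change. With quantile normalization the members' median minus that of all genes was -0.33.

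**Figure D1:**
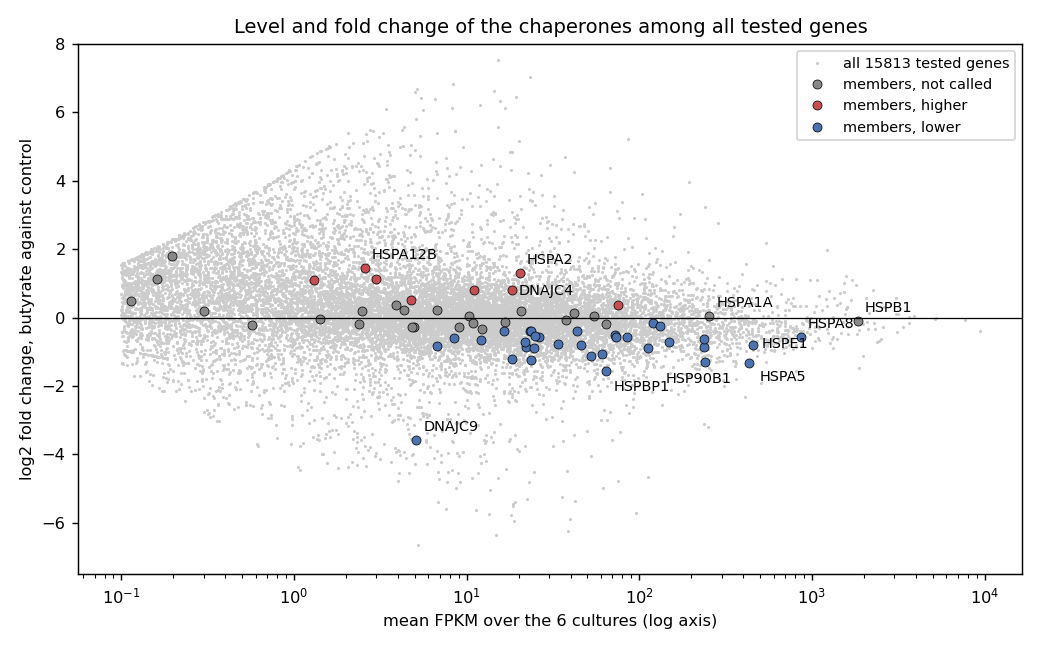
Mean FPKM over the 6 cultures (x, log axis) against the log2 fold change of butyrate over control (y) for all 15813 tested genes (grey dots) and for the 66 tested members (circles, coloured by call). The abundant members lie mostly below 0, HSPB1 and HSPA1A lie close to 0, and DNAJC9 lies at -3.58.

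The cultures carried the keratins and adhesion genes of an epithelium, and genes of other cell types as well. All 10 epithelial markers had a mean FPKM of at least 1 over the 6 cultures, among them KRT8, KRT19 and KRT5. EPCAM did so only through the butyrate cultures, with group means of 0.540 in control and 3.33 after butyrate. The summed FPKM of the 10 was between 2452 and 2560 in control and between 5079 and 5157 after butyrate. Of the 10, 7 rose and 1, KRT5, fell, while CDH1 and DSP did not pass the threshold. Of all tested genes 32.5% rose and 25.9% fell. KRT19 alone went from a mean of 492 to 1953. Of 10 fibroblast markers 6 had a mean FPKM of at least 1, while PDGFRA, PDGFRB, FAP and LUM did not. In this list 8 rose and 0 fell, and PDGFRB and FAP were too low to be tested. The sum of the 10 was between 4356 and 4512 in control and between 6374 and 6715 after butyrate. Most of it came from VIM and COL1A1, with control means of 2464 and 1149. The 5 immune genes had a summed FPKM between 5.12 and 7.15 in control and between 7.23 and 9.38 after butyrate, most of it from CD14, and CD68 was the 1 that rose (0.595 to 1.21, limma adjusted p = 0.011), while the defining genes PTPRC and MS4A1 were listed at 0 in every culture. The 4 endothelial genes had a sum between 1.95 and 2.07 in control and between 6.48 and 8.43 after butyrate, of which PECAM1 and VWF rose and CDH5 was listed at 0 in every culture. The sum of 5 smooth muscle genes, mostly ACTA2, TAGLN and CNN1, was between 6468 and 6796 in control and between 2849 and 3456 after butyrate. Of the 5, 4 fell, among them MYH11, which was below 1 in every culture (means of 0.662 and 0.0762). DES rose, from a mean of 0.367 to 1.60 (limma, adjusted p = 0.0074). The part of such shifts in the chaperone results was not tested, and in bulk RNA fewer cells of a type and less RNA per cell cannot be told apart.

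HSP90 proteins fold and stabilise signalling proteins late in their maturation, and all 3 genes fell. All 3 had a mean FPKM of 50 or more, a level at which 51.9% of all tested genes fell. HSP90AA1, the cytosolic form that stress raises, lies on chromosome 21 from 68595870 to 68601237 (UMD3.1, as all positions here). The controls held 311, 308 and 295 FPKM, in the order of replicates 1 to 3 used throughout, and the butyrate cultures 169, 179 and 160.0 (log2 fold change -0.85, standard error 0.050, limma adjusted p = 1.8e-06). HSP90AB1, the cytosolic form made at all times, had 284, 292 and 286 in control and 188, 184 and 184 after butyrate. That is a log2 fold change of -0.63 with a standard error of 0.037 (limma, adjusted p = 1.6e-06). HSP90B1, or GRP94, works in the ER lumen and lies on chromosome 5 from 67940792 to 67959532. It went from 349, 333 and 340.0 to 136, 149 and 134, a log2 fold change of -1.29 with a standard error of 0.049 (limma, adjusted p = 1.9e-07). In each of the 3 genes the groups were far apart, while 28.9% of all tested genes were apart and lower. The 95% interval of HSP90B1, from -1.40 to -1.17, did not reach those of HSP90AA1, from -0.96 to -0.74, and HSP90AB1, from -0.72 to -0.55.

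Of 11 HSP70 genes 10 were tested, and 6 fell while 2 rose. Of all tested genes 25.9% fell and 32.5% rose. Of those with a mean FPKM of 50 or more, a level that HSPA1A, HSPA5, HSPA8 and HSPA9 reached, 51.9% fell. The largest fall was that of HSPA5 on chromosome 11 from 96115225 to 96119266. It encodes BiP, the HSP70 of the ER lumen and a standard readout of the unfolded protein response. Its FPKM was 615, 623 and 620.5 in control and 245, 245 and 254 after butyrate, which is 40.1% of the control mean (log2 fold change -1.32, standard error 0.035, limma adjusted p = 4e-08). HSPA8, the constitutive cytosolic HSP70 and the most abundant of the family, had 1058, 1032 and 1003 in control and 675, 674 and 726 after butyrate. It fell by 0.58 on the log2 scale with a standard error of 0.041 (limma, adjusted p = 5.5e-06). HSPA9, the HSP70 of the mitochondrial matrix, went from 187, 182 and 188 to 114, 105 and 118 (log2 fold change -0.73, standard error 0.051, limma adjusted p = 5.2e-06). The ER form therefore fell more than the cytosolic and mitochondrial forms, whose 95% intervals, from -0.67 to -0.48 and from -0.84 to -0.61, lay apart from that of HSPA5, from -1.40 to -1.24. HSPA14, a partner of the ribosome, had 39.9, 41.9 and 45.1 in control and 22.1, 26.0 and 26.7 after butyrate (log2 fold change -0.76, limma adjusted p = 9.5e-05). HSPA13 and HSPA12A fell to 68.8% and 76.0% of their control means.

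HSPA1A, the classical stress-inducible HSP70, did not follow these genes. It lies on chromosome 23 from 27331772 to 27333870, and its FPKM was 255, 249 and 245 in control and 259, 277 and 236 after butyrate. The groups overlapped, and the log2 fold change was 0.04 with a 95% interval from -0.09 to 0.18 (limma, adjusted p = 0.57). After either rescaling of the cultures it counted as higher, at 0.16 with equal totals (limma, adjusted p = 0.045) and 0.25 with quantile normalization (limma, adjusted p = 0.0047). Only uniquely mapped reads were used, so reads that fit near-identical copies of this gene equally well would be missing from its value. The same limit holds for the levels of HSPA8, HSP90AA1, HSP90AB1, HSPD1 and HSPE1, which have processed pseudogenes in mammalian genomes. HSPA1L, which 129 bases separate from HSPA1A, reached at most 0.549. HSPA6 reached at most 0.114 and was not tested.

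HSPA2 and HSPA12B were the HSP70 genes that rose. HSPA2, known for its role in male germ cells, lies on chromosome 10 from 76992202 to 76994112. It had an FPKM of 12.4, 13.9 and 9.21 in control and 27.6, 27.7 and 31.3 after butyrate, 2.44 times the control mean (log2 fold change 1.30, standard error 0.14, limma adjusted p = 7.7e-05). HSPA12B, a distant family member known from endothelial cells, had 1.46, 1.21 and 1.35 in control and 3.48, 4.49 and 3.47 after butyrate (log2 fold change 1.44, standard error 0.18, limma adjusted p = 0.00016). PECAM1 and VWF, which mark endothelial cells, were also higher after butyrate, with FPKM means of 3.95 and 3.31 against 1.54 and 0.456 in control, while CDH5 was at 0 throughout. HSPA12A, the nearest relative of HSPA12B, moved the other way.

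**Figure D2:**
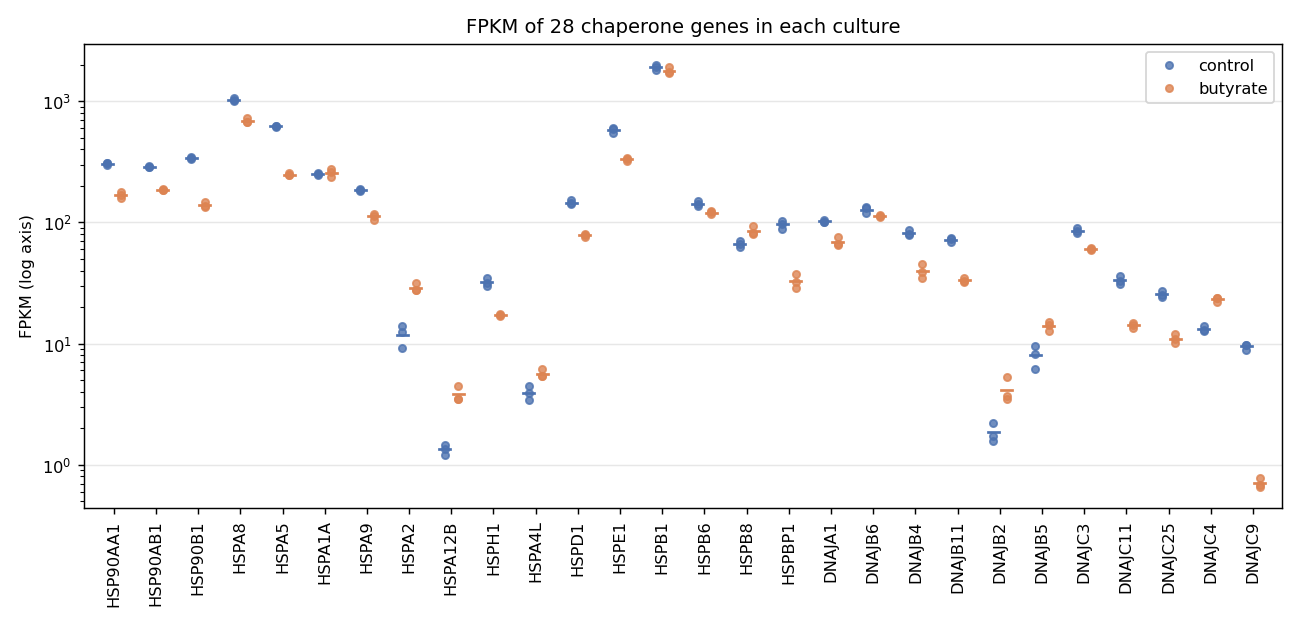
FPKM (y, log axis) of 28 chaperone genes (x) in the 3 control cultures (blue points) and the 3 butyrate cultures (orange points), with a short line at each group mean. The 3 butyrate points of HSPA5 and HSP90B1 lie far below the control points, those of HSPA1A and HSPB1 overlap them, and those of HSPA2 and HSPA12B lie above.

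HSP110 proteins are large relatives of HSP70 that release its nucleotide. HSPH1 had an FPKM of 34.5, 31.6 and 29.9 in control and 17.3, 17.6 and 17.0 after butyrate, which is 54.2% of the control mean (log2 fold change -0.88, standard error 0.073, limma adjusted p = 1.4e-05). HSPA4 went from 52.5, 49.5 and 46.7 to 36.3, 40.0 and 36.1 (log2 fold change -0.40, standard error 0.069, limma adjusted p = 0.0010). HSPA4L, the least abundant of the 3, rose from 4.43, 3.88 and 3.44 to 5.35, 6.19 and 5.36 (log2 fold change 0.52, standard error 0.14, limma adjusted p = 0.012). No value of any of these genes crossed into the range of the other group. Of all tested genes, 28.9% were apart and lower and 36.1% apart and higher.

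HSPBP1, another factor that exchanges the nucleotide of HSP70, fell to a lower share of control than HSPH1. Its FPKM on chromosome 18 from 62643223 to 62653553 was 87.7, 103 and 97.9 in control and 28.6, 32.3 and 37.5 after butyrate, or 34.0% of the control mean (log2 fold change -1.56, standard error 0.10, limma adjusted p = 3.5e-06). The 95% intervals of HSPBP1, from -1.79 to -1.32, and HSPH1, from -1.05 to -0.71, lay apart. HSPB11 and HSPBAP1 share the letters of the symbol without being small heat shock proteins. HSPB11, a subunit of the intraflagellar transport complex, had a log2 fold change of -0.33 with a 95% interval from -0.68 to 0.03, and HSPBAP1 one of -0.04 with an interval from -0.93 to 0.85, so neither passed the threshold.

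HSPD1 and HSPE1, the ring and the lid of the mitochondrial chaperonin, lie next to each other on chromosome 2, HSPD1 from 86438979 to 86449372 and HSPE1 from 86449525 to 86451565. Only 152 bases separate the entries. HSPD1 had an FPKM of 143, 141 and 153 in control and 75.8, 80.4 and 78.4 after butyrate (log2 fold change -0.89, standard error 0.051, limma adjusted p = 1.5e-06). HSPE1 had 588, 596 and 542 in control and 323, 335 and 341 after butyrate (log2 fold change -0.79, standard error 0.046, limma adjusted p = 1.8e-06). The neighbours fell to 53.7% and 57.9% of their control means, and the 95% intervals of their log2 fold changes, from -1.01 to -0.78 and from -0.89 to -0.68, overlapped.

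The small HSPB genes kept most of their level as a sum. Their summed FPKM was 2125, 2204 and 2031 in control and 2107, 1935 and 1963 after butyrate, nearly all of it from HSPB1. CRYAB, a small heat shock protein outside this sum, rose from a mean of 37.6 to 307. HSPB1 (Hsp27), the most abundant member of any class, lies on chromosome 25 from 34858406 to 34861075. It had 1915, 1987 and 1803 in control and 1901, 1713 and 1753 after butyrate, with overlapping groups and a log2 fold change of -0.09 whose 95% interval ran from -0.20 to 0.03 (limma, adjusted p = 0.16). Its sign was not stable, since equal totals per culture turned it to 0.03. HSPB6 (Hsp20), an abundant protein of muscle, went from 135, 142 and 149 to 117, 124 and 121 (log2 fold change -0.24, standard error 0.051, limma adjusted p = 0.0037), and this call was lost under both rescalings. HSPB8, which works with BAG3 in the disposal of misfolded proteins, was 1.28 times the control mean, with 62.9, 65.7 and 70.0 in control and 81.7, 92.6 and 80.9 after butyrate (log2 fold change 0.36, standard error 0.069, limma adjusted p = 0.0019).

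HSPB2, a small heat shock protein of muscle, lies on chromosome 15 from 22571245 to 22572575, and 1034 bases separate it from CRYAB (chromosome 15 from 22566984 to 22570210). CRYAB is itself a small heat shock protein that the symbol rule leaves out. HSPB2 had an FPKM of 11.5, 9.55 and 9.35 in control and 8.16, 5.47 and 6.72 after butyrate (log2 fold change -0.58, standard error 0.16, limma adjusted p = 0.012). CRYAB had 44.0, 32.1 and 36.6 in control and 299, 344 and 277 after butyrate (log2 fold change 3.03, standard error 0.12, limma adjusted p = 2e-07). The neighbours thus changed in opposite directions, each with groups that did not overlap. HSPB3 was listed at 0 in every culture, HSPB7 was above 0 only in butyrate replicate 2 (0.0564), and HSPB9 was above 0 only in butyrate replicate 3 (0.968).

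**Figure D3:**
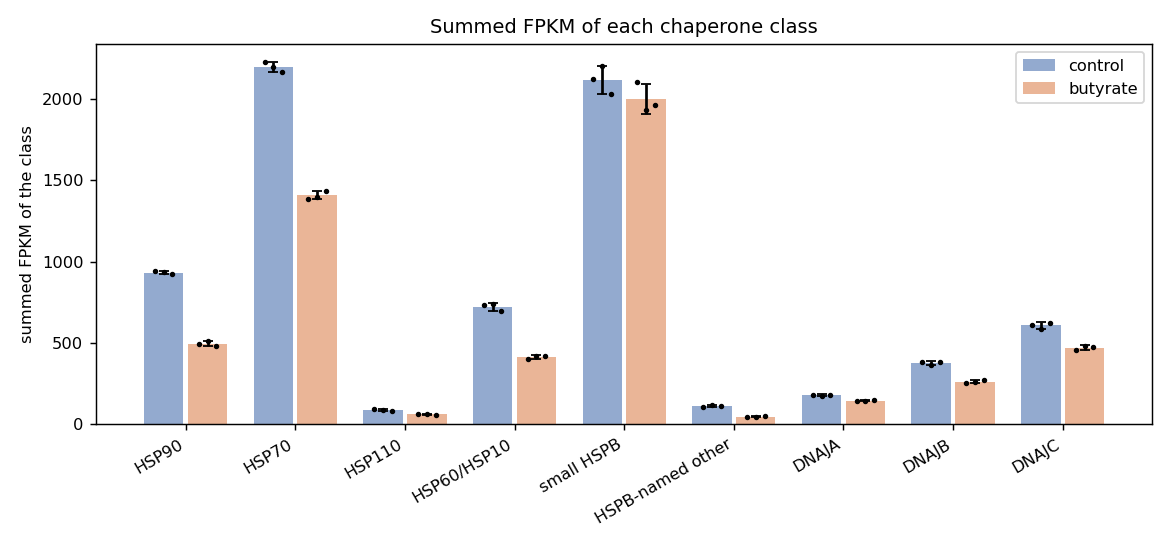
Summed FPKM (y) of each chaperone class (x) in control (blue) and butyrate (orange). Bars are means of 3 cultures with the SD, and points are the cultures. The HSP90 sum fell from 933 to 494 and the HSP70 sum from 2198 to 1409. The small HSPB sums, which leave out CRYAB, overlap between the groups.

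DNAJA proteins are the J-domain proteins closest to the bacterial DnaJ. DNAJA1, the most abundant, had an FPKM of 101, 101 and 105 in control and 64.9, 66.4 and 75.2 after butyrate (log2 fold change -0.57, standard error 0.063, limma adjusted p = 7.6e-05). DNAJA2, which shares its cytosolic role, went from 28.8, 25.1 and 25.3 to 18.6, 20.7 and 21.3 (log2 fold change -0.38, standard error 0.085, limma adjusted p = 0.0044). DNAJA3 of mitochondria and DNAJA4 overlapped between the groups, with log2 fold changes of 0.14 (95% interval from -0.02 to 0.30) and 0.04 (from -0.23 to 0.31). DNAJA3 counted as higher under both rescalings, at 0.27 with equal totals (limma, adjusted p = 0.013) and 0.22 with quantile normalization (limma, adjusted p = 0.031).

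Of 13 DNAJB genes 10 were tested, of which 6 fell and 2 rose. Of all tested genes 25.9% fell and 32.5% rose. Of those with a mean FPKM of 50 or more, a level that DNAJB4, DNAJB6 and DNAJB11 reached, 51.9% fell. DNAJB11, a J-domain protein of the ER lumen that serves BiP, lies on chromosome 1 from 81234016 to 81255914. It had an FPKM of 69.0, 72.5 and 73.8 in control and 32.2, 34.6 and 32.8 after butyrate (log2 fold change -1.11, standard error 0.056, limma adjusted p = 8.3e-07). DNAJB4, a cytosolic protein, went from 85.7, 80.9 and 78.5 to 38.8, 34.8 and 45.2 (log2 fold change -1.05, standard error 0.092, limma adjusted p = 1.9e-05). DNAJB12, which is anchored in the ER membrane, went from 25.9, 31.6 and 28.4 to 16.4, 15.8 and 15.3 (log2 fold change -0.85, standard error 0.087, limma adjusted p = 4.8e-05). Its relative DNAJB14 fell to 62.7% of the control mean and DNAJB9, another BiP partner, to 67.5%. In none of these 5 genes, named because they fell, did the groups overlap, while 28.9% of all tested genes were apart and lower.

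DNAJB6, a suppressor of protein aggregation, had the highest FPKM of the class, at 131, 119 and 133 in control and 111, 116 and 113 after butyrate. Its log2 fold change of -0.17 passed narrowly (standard error 0.054, limma adjusted p = 0.024) and no longer did so when control replicate 1, control replicate 3, butyrate replicate 1 or butyrate replicate 3 was left out, without the mean-variance trend or with either rescaling. DNAJB1, the classical stress-inducible Hsp40, overlapped between the groups, with 10.7, 9.28 and 9.87 in control and 7.53, 9.35 and 7.78 after butyrate (log2 fold change -0.28, standard error 0.12, limma adjusted p = 0.068). DNAJB2, best known from neurons, rose from 1.74, 2.22 and 1.58 to 3.48, 3.67 and 5.34 (log2 fold change 1.12, standard error 0.21, limma adjusted p = 0.0020). DNAJB5 rose from 9.53, 6.19 and 8.27 to 12.8, 14.3 and 14.96 (log2 fold change 0.82, standard error 0.15, limma adjusted p = 0.0019). Germ cell genes of the class were at or near the floor: DNAJB3 and DNAJB8 were at 0 in every culture, DNAJB7 was above 0 only in control replicate 2, and DNAJB13 was at 0 in control and at 0, 0.805 and 0.377 after butyrate.

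DNAJC proteins share little beyond the J domain, and all 26 were tested. Of these 9 fell, 2 rose and 15 did not pass the threshold, so that 34.6% fell, near the 25.9% of all tested genes. DNAJC9, which chaperones histones H3 and H4 together with HSP70, had the largest change of any member. It lies on chromosome 28 from 29452161 to 29456646, with an FPKM of 9.81, 8.84 and 9.82 in control and 0.675, 0.660 and 0.779 after butyrate. By the deposited confidence bounds the thinnest culture held about 7.0 fragments of it. The mean after butyrate was 7.43% of the control mean (log2 fold change -3.58, standard error 0.15, limma adjusted p = 3.3e-07). The study defined a differentially expressed gene by a Bonferroni-corrected p under 0.05 with a log2 fold change beyond 2. By limma, DNAJC9 was the only member past these thresholds (Bonferroni-adjusted p = 9.7e-05). They were met by 1.51% of all tested genes in this direction and by 2.46% in the other, where 0 members met them. The study tested with Cufflinks and listed more genes in each direction than the 238 lower and 389 higher found by limma. Members in the study's own lists were not looked up here. By limma at an unadjusted p under 0.05, 11 members were higher and 34 lower.

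Mitochondrial and less studied DNAJC genes came next. DNAJC11, a protein of the mitochondrial membranes, had 31.1, 33.0 and 36.1 in control and 14.7, 14.1 and 13.5 after butyrate (log2 fold change -1.24, standard error 0.080, limma adjusted p = 3e-06). DNAJC25 went from 25.3, 24.3 and 27.1 to 10.03, 10.9 and 12.1 (log2 fold change -1.21, standard error 0.091, limma adjusted p = 7.4e-06). DNAJC19, part of the motor that pulls proteins into mitochondria, fell to 57.9% of its control mean, while DNAJC15, a relative with the same role, had 64.2, 62.3 and 79.3 in control and 59.1, 58.4 and 61.0 after butyrate and did not pass although the groups were apart (log2 fold change -0.20, limma adjusted p = 0.087). Nuclear and ribosome-bound proteins were among the falls too. DNAJC8, found with splicing factors and the highest of the class, had 85.9, 82.9 and 92.9 in control and 53.5, 60.4 and 63.7 after butyrate (log2 fold change -0.56, standard error 0.075, limma adjusted p = 0.00025), and DNAJC17, also linked to splicing, fell to 55.6%. DNAJC2, which sits at the ribosome where chains emerge, fell to 61.1%. DNAJC7, an adaptor between HSP70 and HSP90, fell to 76.6%, and its call was lost without control replicate 1, butyrate replicate 1 or butyrate replicate 3 and with equal totals per culture.

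DNAJC4 and DNAJC12 were the DNAJC genes that rose. DNAJC4 on chromosome 29 from 43142806 to 43146546 had an FPKM of 12.7, 13.04 and 13.9 in control and 23.8, 22.0 and 24.0 after butyrate, 1.76 times the control mean (log2 fold change 0.81, standard error 0.076, limma adjusted p = 2.8e-05). DNAJC12, a partner of the enzymes that hydroxylate aromatic amino acids, had 0.885, 0.832 and 0.618 in control and 2.52, 1.31 and 1.66 after butyrate (log2 fold change 1.10, standard error 0.28, limma adjusted p = 0.0095). Its values rest on about 4.63 fragments in the thinnest culture, and the call was lost with quantile normalization. DNAJC5, the cysteine string protein of secretory vesicles, had 21.0, 18.4 and 18.4 in control and 22.4, 23.0 and 20.8 after butyrate, so that the groups overlapped, although it counted as higher under both rescalings, at 0.32 with equal totals (limma, adjusted p = 0.010) and 0.25 with quantile normalization (limma, adjusted p = 0.023). DNAJC6, the auxilin of neurons, stayed at or below 0.259.

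**Figure D4:**
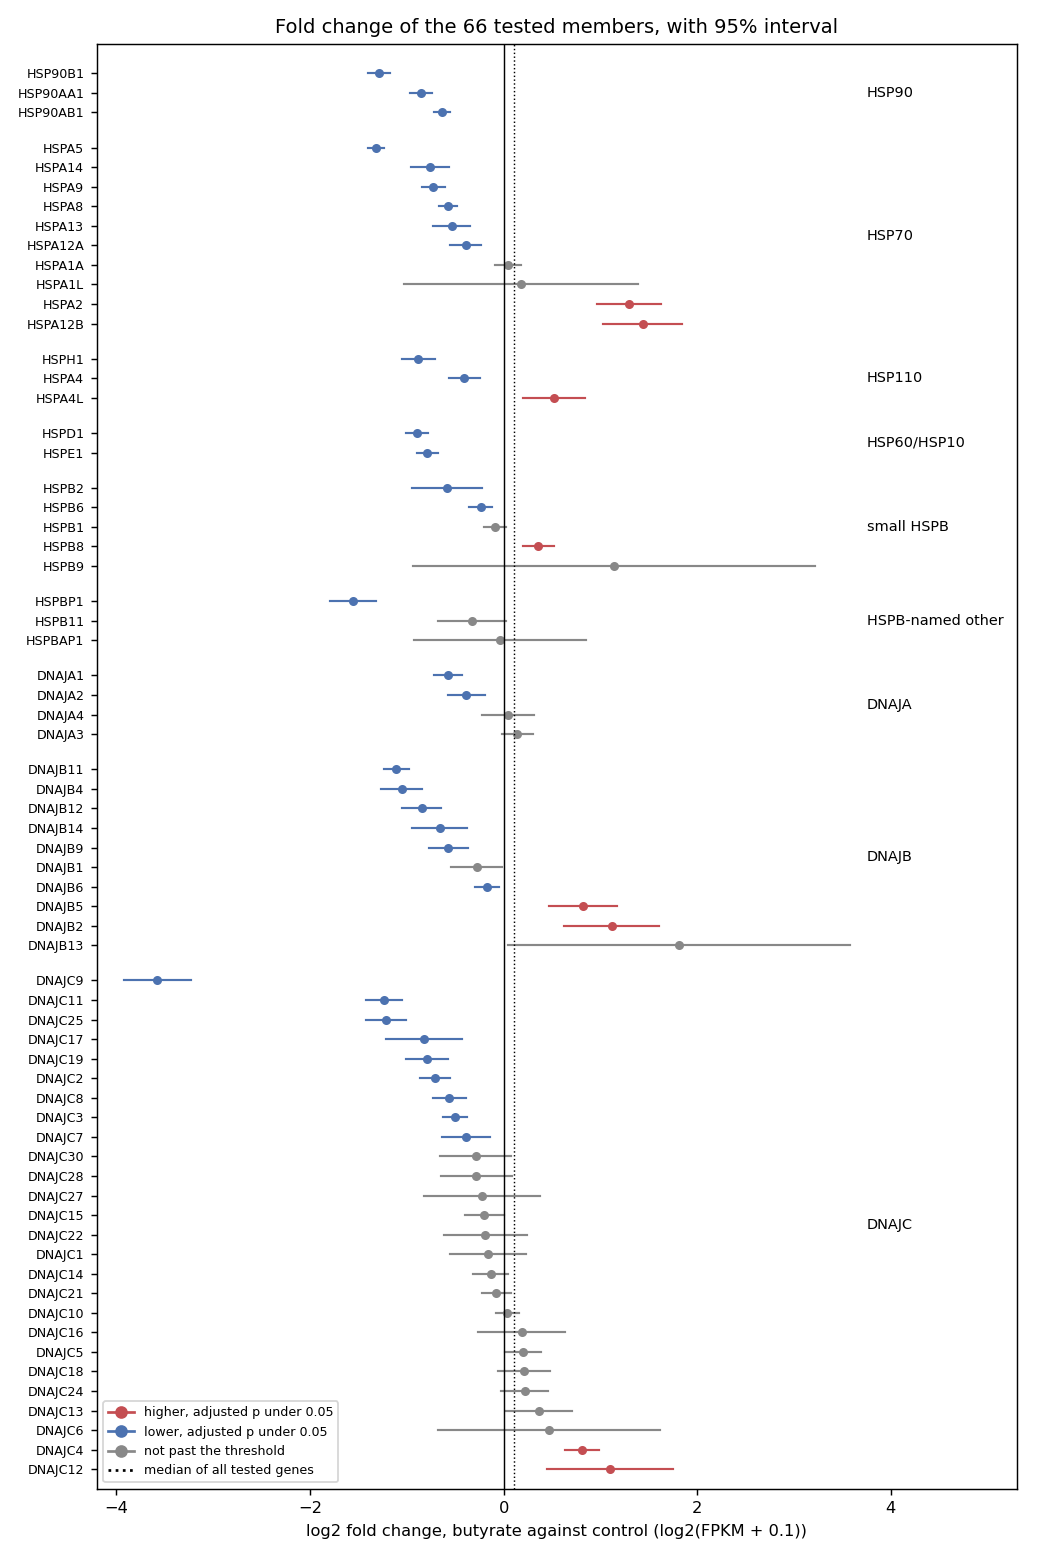
Log2 fold change of butyrate over control (x) with its 95% interval, not adjusted for multiple tests, for the 66 tested members (y) by class. Blue genes fell, red genes rose and grey genes did not pass the threshold, and the dotted line is the median of all tested genes at 0.10.

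Members were also grouped by where the protein works. The list of 8 ER members leaves out DNAJB12 of the ER membrane and its relative DNAJB14, which both fell. It also leaves out DNAJC14, DNAJC16 and DNAJC18, likewise linked to the ER membrane, which did not pass the threshold. Their log2 fold changes were -0.13, 0.19 and 0.22, and DNAJC18 counted as higher with equal totals per culture. Of the 8, 6 fell and 0 rose at the adjusted threshold of limma, and at an unadjusted p under 0.05 the counts were 6 and 0. Of all tested genes 25.9% fell, and of those with a mean FPKM of 50 or more, a level that HSPA5, HSP90B1, DNAJB11 and DNAJC3 reached, 51.9% fell. The median log2 fold change of the ER members was -0.55. Their summed FPKM was 1251, 1237 and 1243 in control and 574, 599 and 592 after butyrate, which is 47.3% of the control mean. HSPA5, HSP90B1, DNAJB11, DNAJB9, HSPA13 and DNAJC3, a BiP partner that also restrains the kinase PERK, were the 6. DNAJC3 had an FPKM of 85.4 ± 4.17 (SD, n = 3) in control and 60.2 ± 1.26 (SD, n = 3) after butyrate. The others were DNAJC10, a disulfide reductase with a J domain, at 53.8 ± 0.795 (SD, n = 3) and 55.2 ± 2.05 (SD, n = 3), and DNAJC1 at 11.5 ± 1.90 (SD, n = 3) and 10.3 ± 2.10 (SD, n = 3). With equal totals per culture DNAJC10 counted as higher, at 0.16 (limma, adjusted p = 0.025). Of 8 mitochondrial members 5 fell and 0 rose, and at an unadjusted p under 0.05 the counts were 5 and 0. Their summed FPKM was at 61.1% of the control mean, and their median log2 fold change was -0.76, lower than that of the ER members. DNAJA3 of this list counted as higher under both rescalings. The list leaves out DNAJC4, also linked to mitochondria, which rose with a log2 fold change of 0.81.

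Of 10 members that are standard targets of HSF1, HSPA6 was too low to be tested. Of the remaining 9, 6 fell and 0 rose at the adjusted threshold of limma, and at an unadjusted p under 0.05 the counts were 7 and 0. The 66.7% that fell stands beside 25.9% of all tested genes and 51.9% of those with a mean FPKM of 50 or more. HSPA8, HSP90AA1, HSPD1, HSPE1, HSPH1 and DNAJA1 were those that fell, and HSPA1A, HSPB1 and DNAJB1 did not pass. HSF1 itself had an FPKM of 78.3 ± 7.12 (SD, n = 3) in control and 69.3 ± 2.47 (SD, n = 3) after butyrate (log2 fold change -0.17, limma adjusted p = 0.066). HSF2 had a log2 fold change of 0.19 (limma, adjusted p = 0.15), and HSF4, an HSF best known from the lens, rose from 1.83 ± 0.551 (SD, n = 3) to 4.82 ± 0.791 (SD, n = 3), a log2 fold change of 1.38 (limma, adjusted p = 0.00098). HSF4 was the only gene to change among the 4 tested of this list.

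Genes that work with the chaperones were read from lists of 82 symbols, of which 77 were tested. Of these 46 fell and 7 rose, whereas of all tested genes 25.9% fell and 32.5% rose, and of those with a mean FPKM of 50 or more 51.9% fell and 30.6% rose. In the chaperonin CCT of the cytosol and its feeder prefoldin, 12 of 14 genes fell, with VBP1, PFDN4 and CCT5 at log2 fold changes of -1.19, -1.16 and -1.16, and all 8 CCT genes were among the 12. Of 24 tested co-chaperones of the cytosol 16 fell and 2 rose. FKBP4, a partner of HSP90 on steroid receptors, fell from 47.8 ± 1.52 (SD, n = 3) to 16.4 ± 0.480 (SD, n = 3), and the phosphatase PPP5C and STIP1, the link between HSP70 and HSP90, had log2 fold changes of -0.93 and -0.92. BAG3, the partner of HSPB8, fell from 77.5 ± 1.01 (SD, n = 3) to 50.7 ± 1.09 (SD, n = 3), whereas HSPB8 rose. CDC37, which brings kinases to HSP90, rose from 89.0 ± 1.98 (SD, n = 3) to 132 ± 6.86 (SD, n = 3) (log2 fold change 0.57, limma adjusted p = 2.2e-05), in the opposite direction to the HSP90 genes, and BAG2 rose with a log2 fold change of 0.33.

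In the ER list 8 of 15 genes fell and 2 rose. This and the counts below stand beside 25.9% of all tested genes that fell and 32.5% that rose. Of those with a mean FPKM of 50 or more, which many genes of the ER list reached, 51.9% fell and 30.6% rose. CRELD2 and MANF, both induced by ER stress, fell most, from 153 ± 6.55 (SD, n = 3) to 33.3 ± 0.738 (SD, n = 3) and from 476 ± 14.6 (SD, n = 3) to 135 ± 7.15 (SD, n = 3), and PDIA4 followed with a log2 fold change of -0.75. A further 5 genes of the list did not pass the threshold. Among them were HERPUD1, EDEM1 and SEL1L, with log2 fold changes of 0.041, 0.147 and 0.145. P4HB, a protein disulfide isomerase, and SIL1, the nucleotide exchange factor of BiP, rose with log2 fold changes of 0.33 and 0.27. HYOU1, the HSP110 of the ER, fell from 61.6 ± 0.533 (SD, n = 3) to 24.1 ± 2.24 (SD, n = 3), a log2 fold change of -1.35 whose 95% interval, from -1.52 to -1.18, overlapped that of HSPA5. In mitochondria 5 of 11 genes of folding and import fell and 1 rose. GRPEL1, the nucleotide exchange factor of HSPA9, CLPP and TIMM44 had log2 fold changes of -0.98, -0.88 and -0.80, and the protease LONP1 rose with one of 0.32. Among the 9 tested chaperones that the symbol rule leaves out, 5 fell, among them HYOU1 and CLPB, a disaggregase of mitochondria, and CRYAB alone rose.

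**Figure D5:**
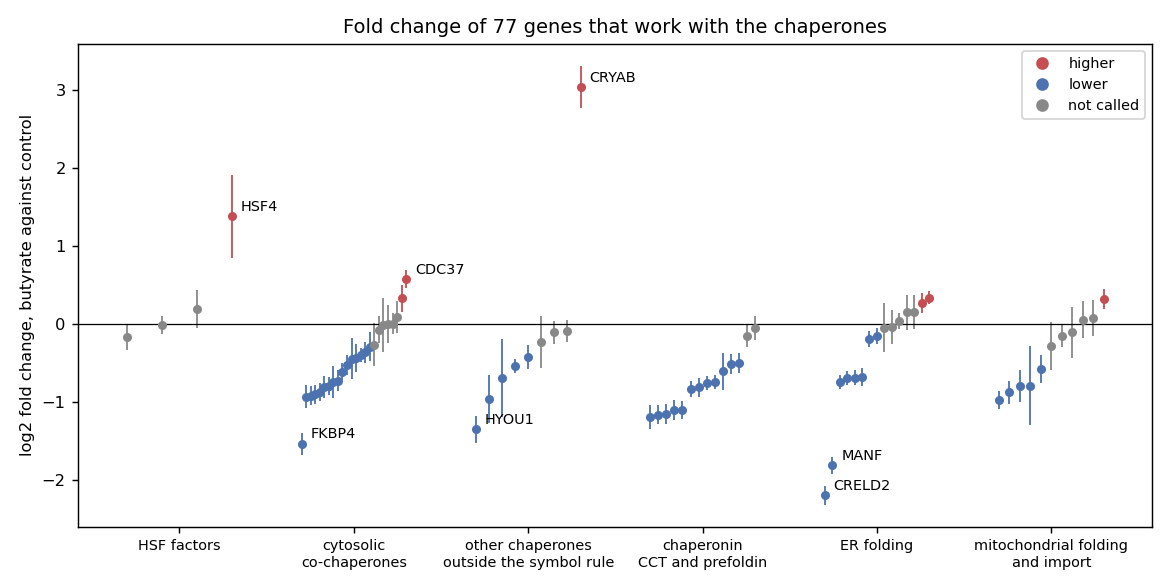
Log2 fold change of butyrate over control (y) with its 95% interval, not adjusted for multiple tests, for 77 genes that work with the chaperones, by list (x). The 12 genes of the chaperonin list that fell lie between -1.19 and -0.50, and CRYAB stands at 3.03.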

How the data were processed

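RNA-seq libraries of 6 REPC cultures (3 control, 3 butyrate) were analysed, with groups and replicate numbers taken from the sample labels. The authors trimmed reads with Trim Galore 0.4.1, aligned them with STAR to UMD3.1, used uniquely mapped reads only, and deposited FPKM values per gene from Cufflinks with lower and upper confidence bounds. Versions of STAR and Cufflinks are not given in the sources used here. Gene starts were shifted to count from 1.

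Rows were joined by identifier and position, and 2 genes with a failed estimate were left out. Log2(FPKM + 0.1), a scale that understates changes of low genes, was tested by limma 3.58.1 (R 4.3.3, trended variance) over the 15813 genes whose mean FPKM reached 0.1. Adjusted p-values are Benjamini-Hochberg values over all tested genes. Counts are not in these tables. Confidence bounds imply, as an approximation, a median over members of about 235 fragments in the thinnest culture, which covers counting error only. Pairing was checked by correlating the deviations of same-numbered cultures, which gave 0.0228, -0.00431 and 0.00177, so the numbers were not treated as pairs.

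The members and lists were chosen with earlier results of these data known. Per-culture values are given for the differentially expressed member, up to 3 rises and 3 falls and the most abundant gene of each class, and a fixed set of core chaperones. Among partner genes, the largest changes of each list were named by rule. The rises in the cytosolic, ER and mitochondrial lists, and HERPUD1, EDEM1 and SEL1L, were named after their values were seen. A gene that the rule would name is not reported here by name and stays in the counts. HSPB11, HSPBAP1 and HSPBP1 were set apart from the small heat shock proteins. Of 82 partner symbols 80 were found. Sequences were not used here.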

Additional observations from a re-analysis of the deposited data

How the results depend on the processing

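Of the 41 calls among members, 30 falls and 7 rises held under each of the 14 refits. The exceptions were DNAJB6, HSPB6, DNAJC7 and DNAJC12. With equal totals per culture the rises numbered 15 among members and 11 among partner genes, against 8 and 7, the added members being DNAJA3, DNAJC5, DNAJC10, DNAJC13, DNAJC18, DNAJC24 and HSPA1A. Quantile normalization added DNAJA3, DNAJC5 and HSPA1A as rises and DNAJB1 and DNAJC27 as falls. A Bonferroni-adjusted p under 0.05 left 0 rises and 15 falls among members (limma, 11 rises and 34 falls at an unadjusted p under 0.05) and 2 rises and 28 falls among partner genes. A Bonferroni-adjusted p under 0.05 with a log2 fold change beyond 1 gave 8 falls in place of 1. These follow from the stricter or looser threshold. Equal totals raised the log2 fold changes of all genes almost alike, their median going from 0.10 to 0.22. Why the totals differed between the groups was not tested. Without a culture in turn, falls ranged from 31 to 34 and rises from 8 to 9. Leaving out a culture also brought in DNAJB13 (2.72, without butyrate replicate 1), DNAJB1 (-0.37, without butyrate replicate 2), DNAJA3 (0.21, without butyrate replicate 3), DNAJC5 (0.26, without control replicate 1), DNAJC15 (-0.26, without control replicate 2) and HSPB11 (-0.46, without control replicate 3).

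With the replicate number as a block 8 members rose and 34 fell, and HSPB11 was the added fall (-0.33). Signs changed only for genes called in neither fit. With equal totals the log2 fold changes were 0.074 for HSPBAP1, 0.050 for DNAJC21 and 0.034 for HSPB1, and with quantile normalization they were -0.50 for DNAJC6, -0.11 for DNAJC16 and -0.62 for HSPA1L. With a culture left out they ranged from -0.380 to 0.322 for HSPBAP1, from -0.293 to 0.003 for DNAJC1, from -0.065 to 0.111 for DNAJA4, from -0.014 to 0.102 for HSPA1A and from -0.183 to 0.710 for HSPA1L. Few fragments limit the genes with an FPKM below 1.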
